A study of Mesocricetus auratus with 6 samples.

Results

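The transcripts followed here were those of 9 genes that the circadian clock is known to control and that act in metabolism or the cell cycle. They were *Nampt*, *Sirt1*, *Pdk4*, *Ppargc1a*, *Wee1*, *Cdkn1a*, *Usp2*, *Noct* and *Tsc22d3*. They were taken by gene symbol from the deposited tables of 31593 genes, and all 9 were present. RNA was sequenced from cortex, suprachiasmatic nucleus (SCN) and liver of Syrian hamsters at CT15, a time in the early subjective night. *Duper* hamsters carry a mutation that leaves them without CRY1 protein, and wild-type (LVG) hamsters were the controls. There were 4 hamsters of each genotype, raised in a light-dark cycle with free access to food. The *duper* hamsters were all female and the wild-type hamsters were of both sexes in equal number, so sex and genotype cannot be told apart in full. For cortex and SCN the RNA of 4 hamsters was mixed into 1 library, and for liver the reads of 4 hamsters were merged. Each tissue therefore had 1 set of values per genotype, 6 in all, and the spread between animals was not measurable.

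In the mammalian clock, CLOCK and ARNTL (BMAL1) drive transcription of genes with E-box elements, and the PER and CRY proteins repress them. The output genes described here carry that rhythm into NAD synthesis, the choice of fuel, the entry into mitosis, protein turnover and the response to glucocorticoids. *Nampt* encodes the rate-limiting enzyme of NAD salvage, and the SIRT1 deacetylase, which uses NAD, acts back on the clock. WEE1 kinase holds CDK1 inactive before mitosis, and USP2 removes ubiquitin from clock proteins and other targets.

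The total estimated count ran from 6788947 in the wild-type cortex to 85748562 in the *duper* liver. The SCN libraries held 29936218 counts for wild type and 7248840 for *duper*, so the *duper* values set the precision in the SCN. The mutated gene *Cry1* was measured at 33.3, 22.9 and 16.8 TPM in cortex, SCN and liver of wild-type hamsters and at 8.56, 8.14 and 5.44 TPM in the same tissues of *duper* hamsters. TPM is a transcript level scaled for transcript length and library total. Hepatocyte markers summed to 124800 and 133900 TPM in the liver libraries and to between 54.0 and 130.1 TPM in the brain libraries. Markers of cortical excitatory neurons summed to 1017 and 928 TPM in cortex and to 21.4 and 16.7 TPM in SCN. Of the SCN markers, *Nms* was at 0 in both cortex libraries and at 33.5 TPM (wild type) and 13.4 TPM (*duper*) in the SCN libraries. Those *Nms* values came from 94 and 9 counts. The 5 measured SCN markers summed to 75.5 TPM there in wild type and to 47.8 TPM in *duper*. That list was not specific to the SCN, since it summed to 125.4 and 135.8 TPM in liver, nearly all from *Rgs16*, while *Nms* and *Six6* were at 0 there.

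Levels are given below in TPM, with the estimated count behind some of them. A ratio of *duper* over wild type within a tissue compares 2 libraries and has no replicate check. The interval given with it is the exact Clopper-Pearson one at 95%, which takes account of counting error alone. Tests across tissues used edgeR's quasi-likelihood test on 18275 genes, including all 9, with both genotypes as the replicates of a tissue or the tissues as the replicates of a genotype. A call needed an absolute log2 fold change above 0.58 together with a Benjamini-Hochberg adjusted p below 0.05. In mixed tissue, fewer cells of a type and less RNA per cell cannot be told apart.

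**Figure D1:**
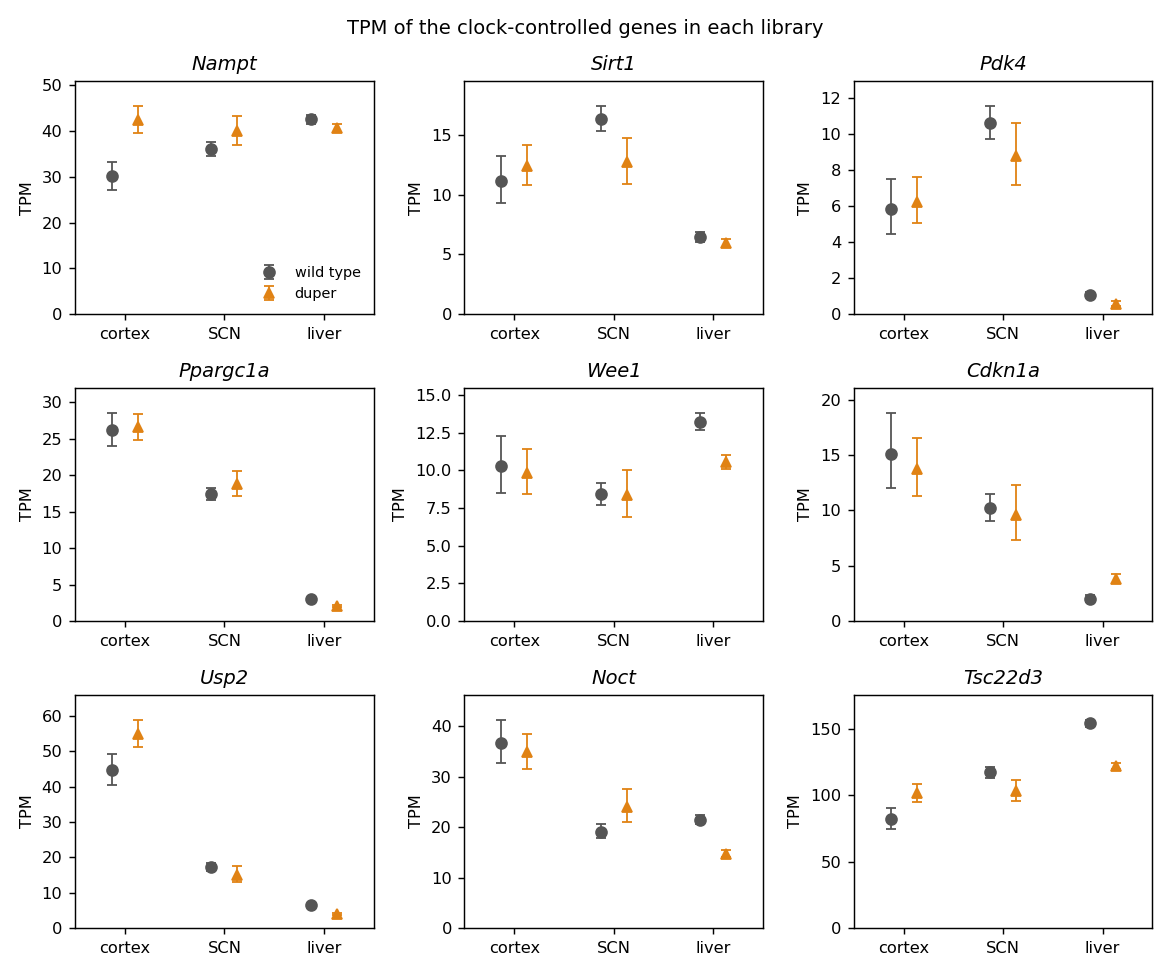
TPM of each of the 9 genes (vertical axes, from 0, scaled per gene) in cortex, SCN and liver of wild-type hamsters (grey circles) and *duper* hamsters (orange triangles), 1 library per point. Bars are 95% counting intervals. *Usp2* stood at 44.7 and 55.0 TPM in cortex and under 20 TPM in SCN and liver, and *Cdkn1a* was the gene with the higher *duper* value in liver.

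*Nampt* levels lay within a narrow band in all 6 libraries. In cortex *Nampt* was at 30.1 TPM (wild type) and 42.5 TPM (*duper*), with 397 and 844 counts. In SCN it was at 36.0 and 40.1 TPM, from 2369 and 625 counts, and in liver at 42.5 and 40.6 TPM, from 7582 and 9011 counts. The wild-type cortex was the low library, and the other 5 lay between 36.0 and 42.5 TPM. The cortex pair gave a log2 ratio, *duper* over wild type, of 0.50 (interval 0.32 to 0.67). The SCN pair gave 0.15 (0.02 to 0.28) and the liver pair −0.07 (−0.11 to −0.02). In cortex 92.7% of the genes measured there had a lower ratio. *Sirt1*, by contrast, was lowest in liver on the TPM scale, at 6.46 and 5.96 TPM in wild type and *duper*. It was at 11.1 and 12.4 TPM in cortex and at 16.3 and 12.7 TPM in SCN. The SCN pair, from 943 and 174 counts, gave a log2 ratio of −0.36 (−0.60 to −0.13), and 10.6% of the genes measured in SCN had a lower one. The intervals of *Sirt1* in cortex and liver held 0.

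*Pdk4* encodes a kinase that switches off pyruvate dehydrogenase and so spares glucose. It was the rarest of the 9 transcripts in liver, at 1.05 TPM (wild type) and 0.594 TPM (*duper*), with 143 and 101 counts. In cortex it was at 5.84 and 6.23 TPM and in SCN at 10.6 and 8.78 TPM. Both brain intervals held 0, and the liver log2 ratio was −0.82 (−1.20 to −0.44). With a mean under 1 TPM in liver, *Pdk4* was left out of the counts for that tissue. *Ppargc1a*, the coactivator of mitochondrial and gluconeogenic genes, was also mainly a brain transcript here. Its cortex levels were 26.2 and 26.6 TPM and its SCN levels 17.5 and 18.8 TPM, while the liver held 2.998 and 2.11 TPM. The genotypes differed by less than counting error in cortex and SCN, and the liver log2 ratio was −0.51 (−0.66 to −0.36), from 788 and 691 counts.

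The cell-cycle genes differed from each other in liver. *Wee1* was at 10.3 and 9.83 TPM in cortex and at 8.40 and 8.33 TPM in SCN, in wild type and *duper* respectively, and both intervals held 0. In liver *Wee1* was at 13.2 and 10.6 TPM, a log2 ratio of −0.33 (−0.41 to −0.24), from 2088 and 2074 counts. *Cdkn1a* encodes p21, an inhibitor of cyclin-dependent kinases that is induced by DNA damage. Its levels were 15.1 and 13.7 TPM in cortex and 10.2 and 9.58 TPM in SCN, and both intervals held 0. In liver *Cdkn1a* was at 2.04 TPM (wild type) and 3.81 TPM (*duper*), with 146 and 340 counts. This 1.87-fold difference, a log2 ratio of 0.90 (0.62 to 1.19), was the only liver ratio above 0 among the 9 genes, and 97.4% of the genes measured in liver had a lower one.

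*Usp2* ranged from 55.0 TPM in the *duper* cortex to 3.89 TPM in the *duper* liver. The wild-type levels were 44.7 TPM in cortex, 17.2 TPM in SCN and 6.36 TPM in liver, and the *duper* SCN was at 15.1 TPM. The *duper* value was thus higher in cortex and lower in liver. The log2 ratio was 0.30 (0.12 to 0.47) in cortex, −0.19 (−0.44 to 0.05) in SCN and −0.71 (−0.86 to −0.55) in liver, where 784 and 600 counts were behind it. *Noct* encodes nocturnin, a phosphatase of NADP and NADPH related to the deadenylases. It was at 36.8 and 34.9 TPM in cortex and at 19.1 and 24.0 TPM in SCN. Its liver levels were 21.5 TPM (wild type) and 14.7 TPM (*duper*). The ratios of *Noct* pointed in opposite directions in the SCN, 0.33 (0.11 to 0.55), and in the liver, −0.54 (−0.63 to −0.46).

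*Tsc22d3*, the glucocorticoid-induced leucine zipper, was the most abundant of the 9 genes in every library. Its wild-type levels were 82.3, 117.4 and 154.4 TPM in cortex, SCN and liver, and its *duper* levels 101.7, 103.6 and 122.4 TPM. The *duper* value was the higher one in cortex, with a log2 ratio of 0.30 (0.14 to 0.48). It was the lower one in SCN, −0.18 (−0.30 to −0.06), and in liver, −0.33 (−0.37 to −0.30). The wild-type range from cortex to liver was therefore wider than the *duper* range.

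Set side by side, the genotype ratios by TPM were larger in liver than in the brain. With TMM scaling the liver ratios came close to those of all genes in median absolute size only. In cortex 0 of 9 genes passed the fold threshold of 0.58, where 5.46% of 15227 measured genes passed it upward and 5.79% downward. In SCN 0 of 9 passed, where 6.09% of 15863 genes passed upward and 5.21% downward. In liver, of the 8 genes counted, *Cdkn1a* passed upward, where 5.59% of 13620 genes passed, and *Usp2* passed downward, where 13.4% passed. The median absolute log2 ratio of the genes counted was 0.14, 0.18 and 0.42 in cortex, SCN and liver, beside 0.18, 0.16 and 0.25 over all measured genes. With counts scaled by the TMM method (trimmed mean of M-values) in place of TPM, the liver value was 0.24 beside 0.25 over all genes. In liver 7 of the 8 genes counted had a TPM ratio below 0, in a tissue where 64.0% of all measured genes did and the median was −0.12. With TMM scaling 5 of the 8 were below 0, beside 41.9% of all genes, whose median was 0.07. *Nampt* was then at 0.12 and *Sirt1* at 0.07. The lower liver ratios moved to −0.51 for *Usp2*, −0.35 for *Noct*, −0.32 for *Ppargc1a*, −0.15 for *Tsc22d3* and −0.14 for *Wee1*. *Cdkn1a* stood at 1.09 and *Pdk4*, not counted, at −0.63.

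Macrophage markers also differed in liver. All 6 of that list were higher in *duper*, none was at 0, and they summed to 288.7 TPM (wild type) and 461.8 TPM (*duper*). Their part in the liver ratios was not tested. In the brain the same list summed to 82.5 and 99.8 TPM in cortex and to 89.1 and 106.0 TPM in SCN. Beside the SCN ratios, 0 of the 5 measured SCN markers were higher in *duper*, and their part was likewise not tested. Oligodendrocyte markers were higher in *duper* for 3 of 3 in cortex (1769 and 2323 TPM summed, wild type and *duper*) and for 0 of 3 in SCN (3363 and 2912 TPM). Choroid plexus markers summed to 13.3 and 3.49 TPM in SCN and to 24.2 and 17.0 TPM in cortex. They were higher in *duper* for 1 of 3 in SCN and 0 of 3 in cortex. The SCN difference lay mostly in *Kcnj13*, at 11.6 TPM (wild type) and 2.10 TPM (*duper*). The only erythroid marker used was *Alas2*, which the paper also reports as differentially expressed in *duper*. It was the lower in *duper* in cortex (6.48 and 2.83 TPM), SCN (17.4 and 5.50 TPM) and liver (14.9 and 7.52 TPM). The part of these cells in the members' ratios was not tested.

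**Figure D2:**
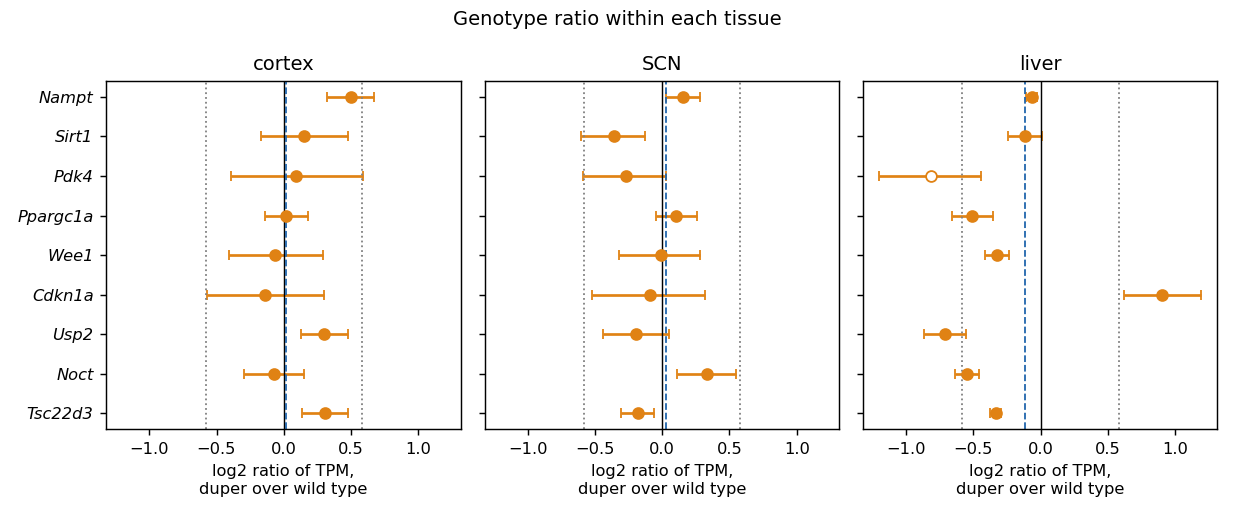
Log2 ratio of TPM, *duper* over wild type (horizontal axis), for each of the 9 genes in cortex, SCN and liver, with 95% counting intervals. The black line is 0, dotted lines are the fold threshold of 0.58 in each direction and the dashed blue line is the median of all measured genes. The open circle is *Pdk4* in liver, below the expression limit. In cortex and SCN all 9 points lie within the dotted lines, and in liver *Cdkn1a* at 0.90 and *Usp2* at −0.71 lie outside.

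Across the 3 tissues together, no member passed edgeR's quasi-likelihood test for genotype. The count was 0 of 9, beside 0.00547% of all genes tested, and an unadjusted p under 0.05 was reached by 0 of 9, beside 3.32%. DESeq2, limma on log2(TPM + 1) and the likelihood ratio test also called 0 of 9, with 0 of 9 at an unadjusted p under 0.05. Shares over all genes were not counted for these further tests, so they add little about the members. *Nampt* came closest, at 0.23 on the log2 scale (standard error 0.12, adjusted p = 0.998). With the TMM scaling of this fit its *duper* value was the higher one in all 3 tissues, and by TPM in cortex and SCN only. *Cry1* itself, at a log2 fold change of −1.69 (standard error 0.17), had an adjusted p of 0.131 in this fit. The fit could therefore miss a change of that size. With DESeq2 and adjustment for tissue, the paper reported *Cry1* as significantly reduced in *duper*. The largest estimates of the other members were −0.30 (standard error 0.24) for *Pdk4* and 0.29 (standard error 0.32) for *Cdkn1a*. The sign for *Cdkn1a* rested on the liver, since without liver it was −0.14.

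Whether the genotype difference in liver departed from that in the brain was tested with an interaction term, taking cortex and SCN to share 1 difference. After adjustment 0 of 9 genes passed in edgeR, beside 3.24% of all genes tested. An unadjusted p under 0.05 was reached by 2 of 9, beside 16.8% of all genes. DESeq2 and limma on log2(TPM + 1) also called 0 of 9, with 0 and 1 of 9 at an unadjusted p under 0.05. For these 2 fits the shares over all genes were not counted. The limma fit called 0 of 10 partner genes that edgeR called, so its 0 of 9 says little about the members. *Cdkn1a* differed by 1.23 on the log2 scale (standard error 0.47, adjusted p = 0.198), being higher in *duper* in liver and not in brain. *Usp2* differed by −0.57 (standard error 0.25, adjusted p = 0.269). *Noct*, at −0.44 (standard error 0.23), and *Ppargc1a*, at −0.38 (standard error 0.21), had adjusted p-values of 0.373 and 0.400.

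The tissue comparisons gave more calls. In SCN against cortex 1 of 9 was called, downward, where 3.91% of all genes tested were called higher and 7.28% lower. This was *Usp2*, 3.05-fold lower in SCN (log2 fold change −1.61, standard error 0.21, adjusted p = 0.00537). Without the *duper* cortex library it was at −1.29 and no longer called (adjusted p = 0.0754). *Noct*, at −0.74 (standard error 0.19, adjusted p = 0.0572), and *Ppargc1a*, at −0.56 (standard error 0.16, adjusted p = 0.0753), were also lower in SCN but did not pass. *Noct* was called when either liver library was left out, with adjusted p-values of 0.00417 and 0.00339. *Nampt*, *Wee1*, *Sirt1* and *Tsc22d3* lay within 0.31 of 0 between the brain regions, and *Pdk4* was at 0.66 (standard error 0.29, adjusted p = 0.209).

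In liver against cortex 8 of 9 genes were called, 5 higher and 3 lower, where 31.9% of all genes tested were called higher and 33.6% lower. *Tsc22d3* was higher by 2.23 on the log2 scale (standard error 0.17), *Wee1* by 1.82 (0.16) and *Nampt* by 1.78 (0.15). *Ppargc1a* was lower by a log2 fold change of −1.89 (0.16), *Usp2* by −1.77 (0.21) and *Pdk4* by −1.37 (0.30). These 6 had adjusted p-values of at most 0.00573. Without the *duper* cortex library 5 of 9 were called, *Pdk4*, *Sirt1* and *Noct* being lost. In liver against SCN 6 of 9 were called, 4 higher and 2 lower, where 31.9% were called higher and 32.9% lower. *Wee1*, at 2.07 (0.16), and *Pdk4*, at −2.03 (0.29), were the most different. *Usp2*, at −0.16, and *Cdkn1a*, at −0.23, did not differ beyond their standard errors of 0.21 and 0.38 in this fit.

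These liver values depend on the scale. A few genes filled the liver libraries, with 22.8% and 24.9% of counts in the 10 most abundant genes against at most 3.71% in the brain. The TMM factors of 0.606 and 0.539 raised all liver levels to compensate. On log2(TPM + 1) with limma, the median of all genes was at −1.15 in liver against cortex, beside −0.02 in the main fit. On that scale *Nampt* and *Wee1* differed from cortex by 0.21 and 0.22 and were not called, *Cdkn1a* was called lower at −2.01 (adjusted p = 0.00101), and *Sirt1* and *Noct* changed sign. *Sirt1* was at 0.65 in the main fit and −0.82 in TPM, and *Noct* at 0.60 and −0.97. The split of calls was then 1 higher and 6 lower against cortex, and 0 higher and 5 lower against SCN. The median of all genes was at −1.15 against SCN too. The shares of all genes called on that scale were not counted, so this split is not a result about the members. On both scales *Ppargc1a*, *Usp2* and *Pdk4* were called lower in liver than in cortex. *Tsc22d3* was called higher at 0.58 on log2(TPM + 1) (adjusted p = 0.0446) and not at 0.59 on log2(TPM + 0.1) (adjusted p = 0.0721).

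**Figure D3:**
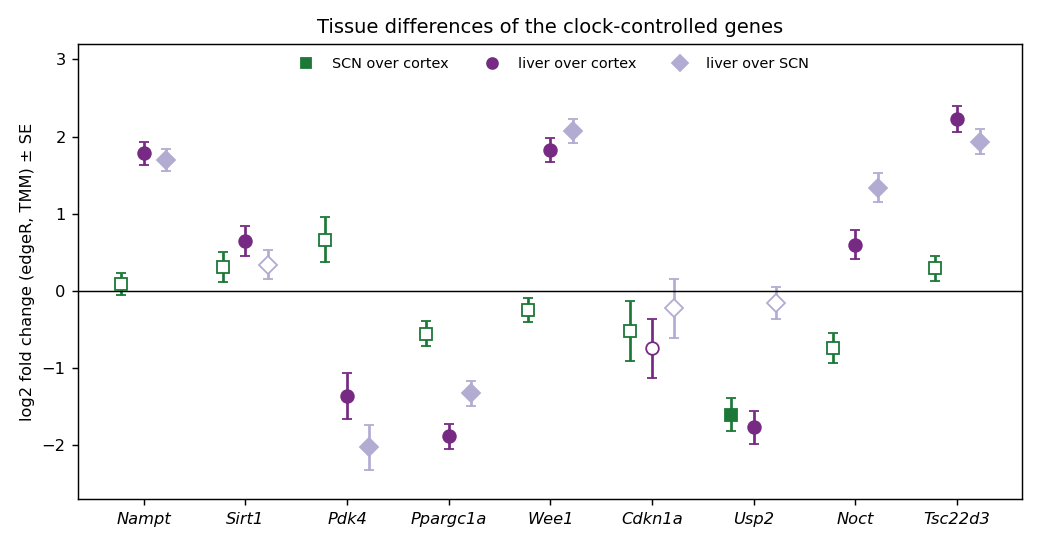
Log2 fold change between tissues (vertical axis, edgeR with TMM scaling) for each gene, with standard errors, for SCN over cortex (green squares), liver over cortex (purple circles) and liver over SCN (light diamonds). Filled symbols passed the call. *Nampt*, *Wee1* and *Tsc22d3* lay between 1.70 and 2.23 in both liver comparisons, and *Usp2* was the only one of the 9 called between SCN and cortex.

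The deposited transcript tables split 6 of the 9 genes into several transcripts, while *Nampt*, *Sirt1* and *Pdk4* had 1 each. The shares are estimates from reads that the transcripts partly have in common, they were not tested, and the transcripts are named here by their length. For *Ppargc1a* the leading transcript differed by tissue. A transcript of 6765 bases carried 74.4% and 75.9% of its TPM in the wild-type and *duper* cortex and 0% and 1.39% in liver. In liver a transcript of 6344 bases took 78.5% and 98.6%. The SCN libraries stood apart from each other, the 6765-base transcript taking 39.9% there in wild type and 84.5% in *duper*. That difference of 44.6 points was exceeded by 10.2% of 9231 genes with several transcripts.

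The lower liver levels of *Usp2*, *Noct* and *Ppargc1a* in *duper* were spread unevenly over their transcripts. The main *Usp2* transcript in liver, of 3121 bases, was at 4.58 TPM (wild type) and 3.71 TPM (*duper*), with 569.9 and 574.3 counts. The 2798-base transcript of *Usp2* was at 1.29 and 0.169 TPM, from 142.9 and 23.2 counts. A similar unevenness was seen for *Noct*, whose 2603-base transcript was at 10.8 and 5.45 TPM and whose 2756-base transcript was at 10.5 and 9.27 TPM. The leading *Noct* transcript therefore differed between the liver libraries, and not between the cortex or SCN libraries. For *Ppargc1a* a 6373-base transcript was estimated at 0.644 TPM in the wild-type liver and at 0 in the *duper* liver, and the 6344-base one at 2.35 and 2.08 TPM. *Tsc22d3* kept 1 leading transcript, of 1949 bases, at 50.4% to 56.5% in the brain and at 78.9% and 78.1% in liver. Its 1770-base transcript carried 40.7% and 36.1% in cortex and 2.75% and 5.47% in liver. Of the 6 genes, the leading transcript differed between the genotypes for 0 in cortex, 2 in SCN (*Ppargc1a* and *Usp2*) and 1 in liver (*Noct*), beside 23.9%, 22.6% and 15.1% of all genes with several transcripts.

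**Figure D4:**
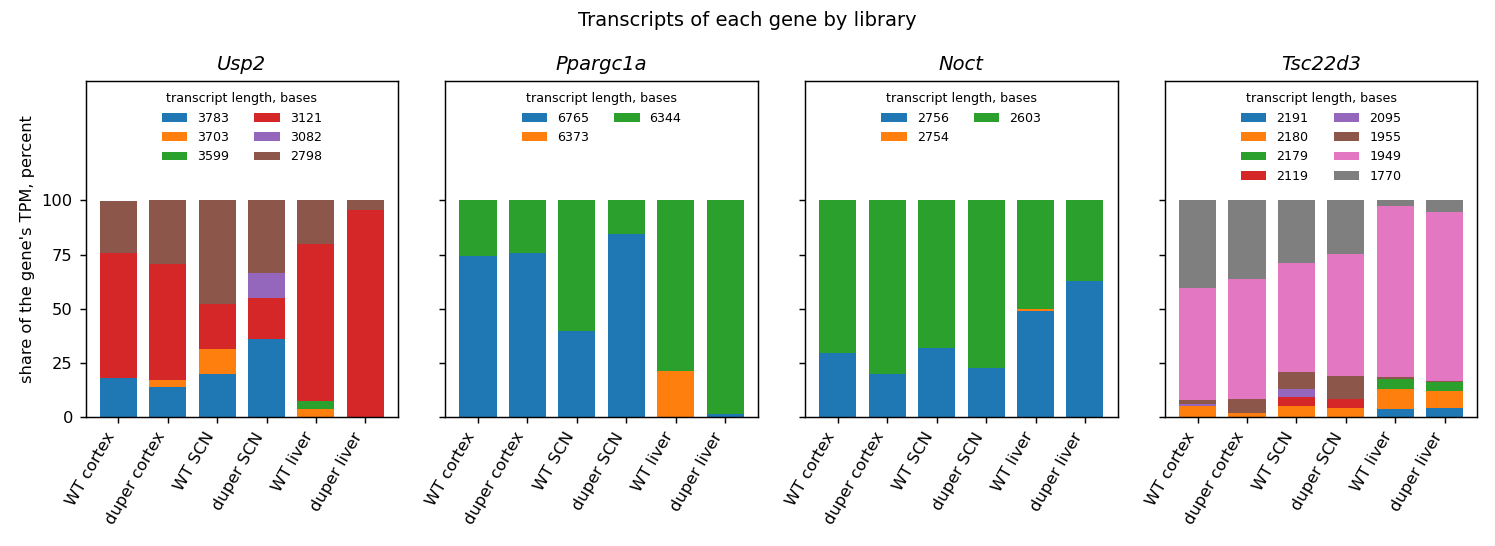
Share of a gene's TPM carried by each of its transcripts (vertical axis, percent) in the 6 libraries for *Usp2*, *Ppargc1a*, *Noct* and *Tsc22d3*, with transcripts coloured by length. WT is wild type. The 6765-base transcript of *Ppargc1a* stands at 39.9% (wild type) and 84.5% (*duper*) in the SCN libraries, and the 2603-base transcript of *Noct* at 50.1% and 37.0% in the liver libraries.

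The partners of these genes were followed in 9 lists, with 112 distinct genes tested beside the members. The lists were chosen with earlier results of these data known, so the shares called among them do not test the partners. For genotype across tissues 0 of 112 were called by edgeR, and 5 had an unadjusted p under 0.05. For the interaction of liver and genotype 10 of 112 were called, 7 higher and 3 lower, which is 8.93% beside 3.24% of all genes. DESeq2 called 2 of these 10, and neither limma fit on log2 TPM called any, so the calls depend on the test. Among the partners of *Ppargc1a*, 1 of 12 was called higher and 1 lower. *Cpt1a*, which brings fatty acids into mitochondria, was at 263.2 and 81.9 TPM in the wild-type and *duper* liver and at 14.9 and 15.9 TPM in cortex. In SCN *Cpt1a* was at 21.1 and 14.7 TPM, the same direction as in liver. *Esrrg*, an orphan nuclear receptor, was at 0.440 and 1.92 TPM in liver and at 16.6 and 15.9 TPM in cortex. In SCN *Esrrg* was also higher in *duper*, at 5.46 and 8.93 TPM. In NAD synthesis and sirtuins 2 of 19 were called higher. *Sarm1*, an enzyme that degrades NAD, was at 3.26 and 6.41 TPM in liver, and *Naprt*, which makes NAD from nicotinic acid, at 57.5 and 82.4 TPM. In cortex and SCN *Sarm1* lay between 15.1 and 17.6 TPM, and *Naprt* was at 16.6 and 11.2 TPM in cortex and 24.0 and 23.2 TPM in SCN.

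Beside *Wee1* and *Cdkn1a*, 1 of 16 cell-cycle genes was called for the interaction. This was *Gadd45a*, at 50.8 and 79.1 TPM in the wild-type and *duper* liver. It was at 29.7 and 20.2 TPM in cortex and at 26.2 and 21.3 TPM in SCN. *Cdkn1a* itself was not called for this term. Of the glucocorticoid-responsive genes, which serve as context for *Tsc22d3*, 2 of 10 were called higher. In liver 5 of the 10 had a TPM ratio below 0, as did *Tsc22d3*. The lowest ratio was that of *Dusp1*, at 16.9 and 9.27 TPM, which was not called. Of the 2 called, *Zbtb16* was at 3.75 and 7.37 TPM in liver and *Errfi1* at 117.9 and 146.8 TPM. In cortex *Zbtb16* was at 26.3 and 31.3 TPM and *Errfi1* at 30.5 and 26.4 TPM, and in SCN they were at 10.96 and 10.2 TPM and at 26.8 and 23.2 TPM. Of 18 clock genes 1 was called higher and 2 lower. *Arntl*, the activator, was at 1.43 TPM in the wild-type liver and 6.33 TPM in the *duper* liver, at 27.8 and 31.7 TPM in cortex and at 16.6 and 20.1 TPM in SCN. *Per2* was at 31.3 and 17.5 TPM in liver, with the *duper* value the higher one in cortex (47.9 and 58.6 TPM) and SCN (24.0 and 37.9 TPM). *Dbp*, an output transcription factor, was at 40.5 and 20.2 TPM in liver, 168.6 and 155.2 TPM in cortex and 89.9 and 93.1 TPM in SCN. The lists of pyruvate dehydrogenase regulators, USP deubiquitinases, deadenylases and the TSC22 family had 0 genes called for this term.

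Between SCN and cortex 15 of the 112 partners were called, all of them lower in SCN. That is 13.4%, beside 7.28% of all genes called lower and 3.91% called higher. As the lists were chosen with earlier results known, this share is no test either. The calls of 5 of the 15, *Bhlhe40*, *Hlf*, *Klf9*, *Npas2* and *Pdp1*, were kept under every alternative run, and 6 of 15 were called when either cortex library was left out. *Usp15*, *Usp28* and *Usp33* were 3 of 15 USP deubiquitinases, and lost the call in 10, 5 and 7 of 16 alternatives. *Pdp1*, the phosphatase that opposes the PDK kinases, was called as 1 of 11 pyruvate dehydrogenase genes, at a log2 fold change of −1.97. The clock list gave 6 of 18, among them *Npas2*, a partner of ARNTL, at −2.21 and *Hlf* at −1.62. The glucocorticoid-responsive list gave 4 of 10, with *Dusp1* at −1.93 and *Klf9* at −1.58. *Cdc25b*, the phosphatase that acts against WEE1 on CDK1, was at −1.45 and lost the call in 4 of 16 alternatives, while *Wee1* was at −0.25 and not called.

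The genes whose levels ran closest to each member over the 6 libraries were found by the Euclidean distance of centred log2(TPM + 1) values among 13502 genes. The nearest was *Actl6a* for *Nampt* (distance 0.12), *Iqgap1* for *Sirt1* (0.11) and *Macf1* for *Pdk4* (0.13). *Trim23* lay nearest to *Ppargc1a* (0.14), *Trappc6a* to *Wee1* (0.12) and *Diaph2* to *Noct* (0.14). *Calr3* was nearest to *Tsc22d3* (0.18), *Neu1* to *Cdkn1a* (0.26) and *Chm* to *Usp2* (0.32). *Usp2* thus had the most distant nearest neighbour of the 9 genes.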

How the data were processed

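RNA of cortex, SCN and liver was sequenced by the authors with a stranded mRNA kit and assigned to transcripts with Kallisto on MesAur2.0. Its version and strand setting are not given in the sources used here. The authors deposited estimated counts and TPM per gene, added up with tximport, and per-library transcript tables with estimated counts, TPM and length in bases. The labels gave genotype and tissue. Libraries carried no replicate number, and no 2 were identical.

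Estimated counts were rounded and tested with edgeR 4.0.16 (R 4.3.3, TMM, filterByExpr by genotype, quasi-likelihood F test) on tissue and genotype, with 2 residual degrees of freedom, or 1 with the interaction term. Alternatives used DESeq2 1.42.0 and limma 3.58.1. Standard errors were derived from F, as |log2 fold change|/√F. Within a tissue, genes needed 10 counts in both libraries and a mean of 1 TPM, and intervals used scipy 1.17.1. Scripts were tested on simulated counts.

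The text names the 9 members, *Cry1*, genes of 9 partner lists, some cell type markers and the nearest gene of each member. The members and lists were chosen with earlier results of these data known. *Trp53*, *Mt1*, *Mt2*, *G6pc* and *Cycs* of the lists were not analysed here. Sequences and coordinates were not used here.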

Additional observations from a re-analysis of the deposited data

Results flagged for a closer look

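For 10 partner genes the genotype difference in liver departed from that in the brain by edgeR's interaction test. On the log2 scale the difference was 2.09 for *Arntl* (standard error 0.28, adjusted p = 0.00116), 1.98 for *Esrrg* (0.36, 0.00976), 1.26 for *Gadd45a* (0.24, 0.0121) and 1.15 for *Sarm1* (0.21, 0.00874). It was 1.11 for *Zbtb16* (0.21, 0.00988), 1.00 for *Naprt* (0.23, 0.0368) and 0.73 for *Errfi1* (0.17, 0.0400). It was below 0 for *Cpt1a*, at −1.22 (0.22, 0.00819), *Per2*, at −1.10 (0.19, 0.00691), and *Dbp*, at −0.76 (0.19, 0.0478). The fit had 1 residual degree of freedom. None of the 10 was called by limma on log2(TPM + 1), where the adjusted p was 0.834 for *Arntl*. DESeq2 called 2 of the 10, *Arntl* (adjusted p = 0.0196) and *Cpt1a* (0.0140). The other 8 had DESeq2 adjusted p-values from 0.0847 for *Per2* to 0.696 for *Dbp*. With library size in place of TMM 5 of the 10 were called. Over 10 alternatives the call was lost in 2 for *Arntl* and *Cpt1a*, 3 for *Per2* and *Esrrg*, 4 for *Gadd45a*, *Sarm1*, *Zbtb16* and *Errfi1*, 5 for *Naprt* and 6 for *Dbp*.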

How the results depend on the processing

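Direction and call of the genotype difference are limited by 1 library per genotype and tissue. No member was called for genotype or for the interaction under any alternative run. No paired analysis was possible because the labels give the libraries no replicate number, and the tissue term of the model already compared the genotypes within tissue. The interaction could not be fitted with a library left out, since no residual degrees of freedom remain.

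SCN against cortex gave 2 called members with no filter beyond 1 count, with at least 10 counts in every library and with the likelihood ratio test, 0 with limma on log2(TPM + 0.1), and 0 to 2 with a library left out. Liver against cortex gave 5 to 8 with a library left out. Within liver, 1 member passed the fold with TMM-normalized CPM or with TPM rescaled by TMM factors, and 3 with no filter on low values. The shares of all genes called or past the fold in these runs were not counted. These shifts in number are therefore not a result about the members.

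Signs of some genotype estimates turned, and not only of those near 0. In the main fit *Cdkn1a* was at 0.29 and *Pck1* at −0.93. *Usp2* was at 0.029 with no tissue term. Without SCN *Tsc22d3* was at 0.035 and *Sirt1* at 0.074. Without liver *Cdkn1a* was at −0.14, *Usp2* at 0.060, *Tsc22d3* at 0.029, *Ppargc1a* at 0.061 and *Noct* at 0.098. With 1 library left out the genotype estimate ran from −0.14 to 0.50 for *Cdkn1a*, −0.35 to 0.056 for *Usp2*, −0.18 to 0.050 for *Tsc22d3*, −0.17 to 0.060 for *Ppargc1a*, −0.15 to 0.089 for *Sirt1*, −0.24 to 0.096 for *Noct* and −1.08 to 0.049 for *Pck1*. The positive *Sirt1* values came without an SCN library, those of *Usp2*, *Ppargc1a*, *Noct* and *Pck1* without a liver library. *Nampt* in SCN against cortex ran from −0.086 (without the wild-type cortex) to 0.26. In liver against SCN *Cdkn1a* ran from −0.83 to 0.40 and *Usp2* from −0.44 to 0.13.

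With library size in place of TMM, *Sirt1* was at −0.48 and *Noct* at −0.52 in liver against cortex and *Sirt1* at −0.96 in liver against SCN. With limma on log2(TPM + 1) against cortex they were at −0.82 and −0.97, and against SCN at −1.10 and −0.26. With log2(TPM + 0.1) they were at −0.91 and −1.01, and at −1.20 and −0.27, and the *Sirt1* interaction was at −0.0089. Under these scalings the median of all genes was −1.14, −1.15 and −1.51 in liver against cortex. The cause of the other changes was not tested.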
